A study of Homo sapiens with 6 samples.

Results

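The genes described here encode tight junctions, desmosomes, connexins, catenins and regulators of epithelial identity, measured in 2 human pancreatic ductal adenocarcinoma cell lines with and without KDM6A. The set is a list of 42 genes named by function, with no measured value in its rule, though it was drawn up with earlier results of these data known. A probe set that named a single gene was found for 39 of them, out of 19775 genes with such a probe set, and all 39 lay above the array median on at least 1 array and were tested among 14387 genes. F11R, a tight junction adhesion molecule, CTNND1, which encodes p120 catenin, and ESRP2, an epithelial splicing regulator, were not analysed here.

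Expression arrays were run on Panc1 and BxPC3 cells. Panc1 gave 1 KDM6A wild-type control array and 1 KDM6A-knockout array, and BxPC3 gave 2 control arrays and 2 knockout arrays. Knockout cells came from a lentiviral CRISPR/Cas9 vector carrying a guide against KDM6A, a histone demethylase gene, followed by puromycin and limiting dilution to obtain clones. Panc1 cells grew in DMEM and BxPC3 cells in an RPMI medium, so medium and line cannot be told apart. The sources used here do not say how many clones were profiled, whether controls carried a vector, or whether the BxPC3 arrays came from separate cultures, so p-values measure only the spread between these arrays, which may be technical.

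Tight junctions seal the space between neighbouring epithelial cells: claudins and occludin cross the membrane, and scaffold proteins such as ZO-1 tie them to actin. Desmosomes hold cells together mechanically, with desmogleins and desmocollins outside the cell and desmoplakin, plakoglobin and plakophilins linking them to keratin filaments. Connexins form gap junction channels between cells, and grainyhead-like, OVOL and ESRP proteins maintain epithelial gene expression and splicing in ducts and other epithelia.

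The promoters of 4 members are shown because the results turn on them: CLDN4 was lower in the knockout cells of both lines, GJA1 and OCLN fell in BxPC3, and DSP had the largest difference of any member in Panc1. Each line holds the 250 bases before the outermost RefSeq start of the gene in GRCh38.p14, on the plus strand, 5′ to 3′. The windows lie at chr7:73830746-73830995 for CLDN4, chr6:121435396-121435645 for GJA1, chr5:69492297-69492546 for OCLN and chr6:7541421-7541670 for DSP. Capitals mark the letters of an AP-1 motif (TGANTCA) in the first 2 and of the E-box bound by ZEB and SNAI factors (CACCTG, here read as CAGGTG on the other strand) in the last 2.
CLDN4: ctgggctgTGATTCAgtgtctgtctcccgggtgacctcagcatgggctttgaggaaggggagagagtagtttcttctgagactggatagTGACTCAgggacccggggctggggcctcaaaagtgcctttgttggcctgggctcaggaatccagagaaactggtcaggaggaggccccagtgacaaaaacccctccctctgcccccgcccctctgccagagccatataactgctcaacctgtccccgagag
GJA1: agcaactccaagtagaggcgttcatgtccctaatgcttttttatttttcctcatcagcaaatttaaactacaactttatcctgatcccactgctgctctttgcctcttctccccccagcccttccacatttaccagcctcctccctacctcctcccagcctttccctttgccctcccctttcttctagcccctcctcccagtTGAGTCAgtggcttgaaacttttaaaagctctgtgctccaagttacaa
OCLN: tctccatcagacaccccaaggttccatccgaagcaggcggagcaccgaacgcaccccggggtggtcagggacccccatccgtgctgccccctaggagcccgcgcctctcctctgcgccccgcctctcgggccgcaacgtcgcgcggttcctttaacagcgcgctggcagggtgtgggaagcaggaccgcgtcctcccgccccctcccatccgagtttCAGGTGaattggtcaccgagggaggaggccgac
DSP: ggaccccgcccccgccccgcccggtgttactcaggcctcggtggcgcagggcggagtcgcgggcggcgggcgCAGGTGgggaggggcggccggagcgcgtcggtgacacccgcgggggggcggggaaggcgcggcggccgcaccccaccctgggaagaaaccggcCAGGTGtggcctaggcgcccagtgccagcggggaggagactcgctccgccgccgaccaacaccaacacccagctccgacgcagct

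RefSeq windows were matched for 25 of the 42 members. Both strands were searched for 4 motifs, which did not overlap one another in the windows shown. The AP-1 letters stood in 2 of the 25 windows, CLDN4 with 2 copies and GJA1 with 1, against a share of 6.57% among 27305 windows of the same length over all genes. The E-box letters stood in 7 (CLDN18, CRB3, DSC2, DSG2, DSP, OCLN and TJP1), or 28.0% against 17.5%, with 2 copies in DSP and 1 in OCLN. The grainyhead-like motif AACCNGTT was found in CGN alone, against a share of 1.50%, and TATAAA in none of the 25, against 11.2%. The members' windows had a median GC content of 66.0% and 19 CpG dinucleotides, against 57.6% and 10 over all windows. A match describes letters in a window and is not a binding site.

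Values throughout are log2 expression levels, and differences are knockout minus control on that scale, so that 1 is a 2-fold difference. The lines appear to have been normalized apart (no probe set held exactly the same deposited number on a Panc1 and a BxPC3 array, against 2895 that did within Panc1), so levels are compared within a line only. KDM6A itself read 6.73 in the Panc1 control and 4.06 in the knockout. In BxPC3 it read 8.02 and 7.85 in the controls and 7.29 and 7.01 in the knockouts, a difference of -0.79 ± 0.12 (SE, limma adjusted p = 0.0329). Both knockouts were thus lower for the targeted gene, less so in BxPC3 (difference between lines -1.88 ± 0.21, adjusted p = 0.0111). Whether the probe set lies outside the edited exon was not examined. The 2 BxPC3 controls correlated at r = 0.998 and the 2 knockouts at r = 0.996. All 6 markers of duct carcinoma epithelium exceeded the median of every array, against 3 of 7 fibroblast, 2 of 6 immune and 1 of 5 endothelial markers on all BxPC3 arrays and 4, 2 and 3 on both Panc1 arrays. Of the 4 endothelial markers tested in BxPC3, CDH5 alone fell (by 2.19) and 2 were above 0, with a median difference of 0.06. The 4 fibroblast markers tested had a median of -0.09. Of the 4 immune markers tested, CD14 fell in BxPC3 (-0.43) and 3 were above 0, with a median of 0.08. In Panc1 1 immune marker was below 0 (-0.79) and 3 were above (median 0.19). In Panc1 all 4 fibroblast markers tested were above 0 (median 0.39; mean level of the list 4.67 and 4.99), and the mean level of the duct epithelium list was 10.16 in the control and 9.61 in the knockout, CDH1 and EPCAM being the lowest of its differences. The part of these markers in the results was not tested. In such bulk samples fewer cells of a type and less RNA per cell cannot be told apart.

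In BxPC3, 6 of the 39 measured members fell in the knockout and none rose. They were the claudin genes CLDN4, CLDN7 and CLDN23, the occludin gene OCLN, the scaffold gene TJP3 and the connexin gene GJA1. That is 15.4% of the members, against 4.72% of all genes tested (3.58% lower and 1.14% higher). At an unadjusted p under 0.05, 13 members differed, 11 lower and 2 higher, or 33.3% against 19.9% of all genes. The knockout arrays lay wholly below the controls for 18 members and wholly above for 4, against 26.8% and 23.9% of all genes. The median difference was -0.07 over the members and 0.00 over all genes tested.

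The BxPC3 result depended on single arrays. Leaving out control array 1 or control array 2 left 1 member past the threshold, GJA1 (limma adjusted p = 0.0212 and 0.0242), while 0.653% and 0.619% of all genes passed. Without knockout array 2 the calls of CLDN7, CLDN23, OCLN and TJP3 were lost, at differences of -0.56, -0.57, -0.63 and -0.82. Without knockout array 1 the call of CLDN7 was lost (-0.50), and GRHL1 (-1.09) and PKP2 (-0.95) were gained. For each of the 6 genes both knockout arrays lay below both controls, so no such refit could change the sign of its difference.

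**Figure D1:**
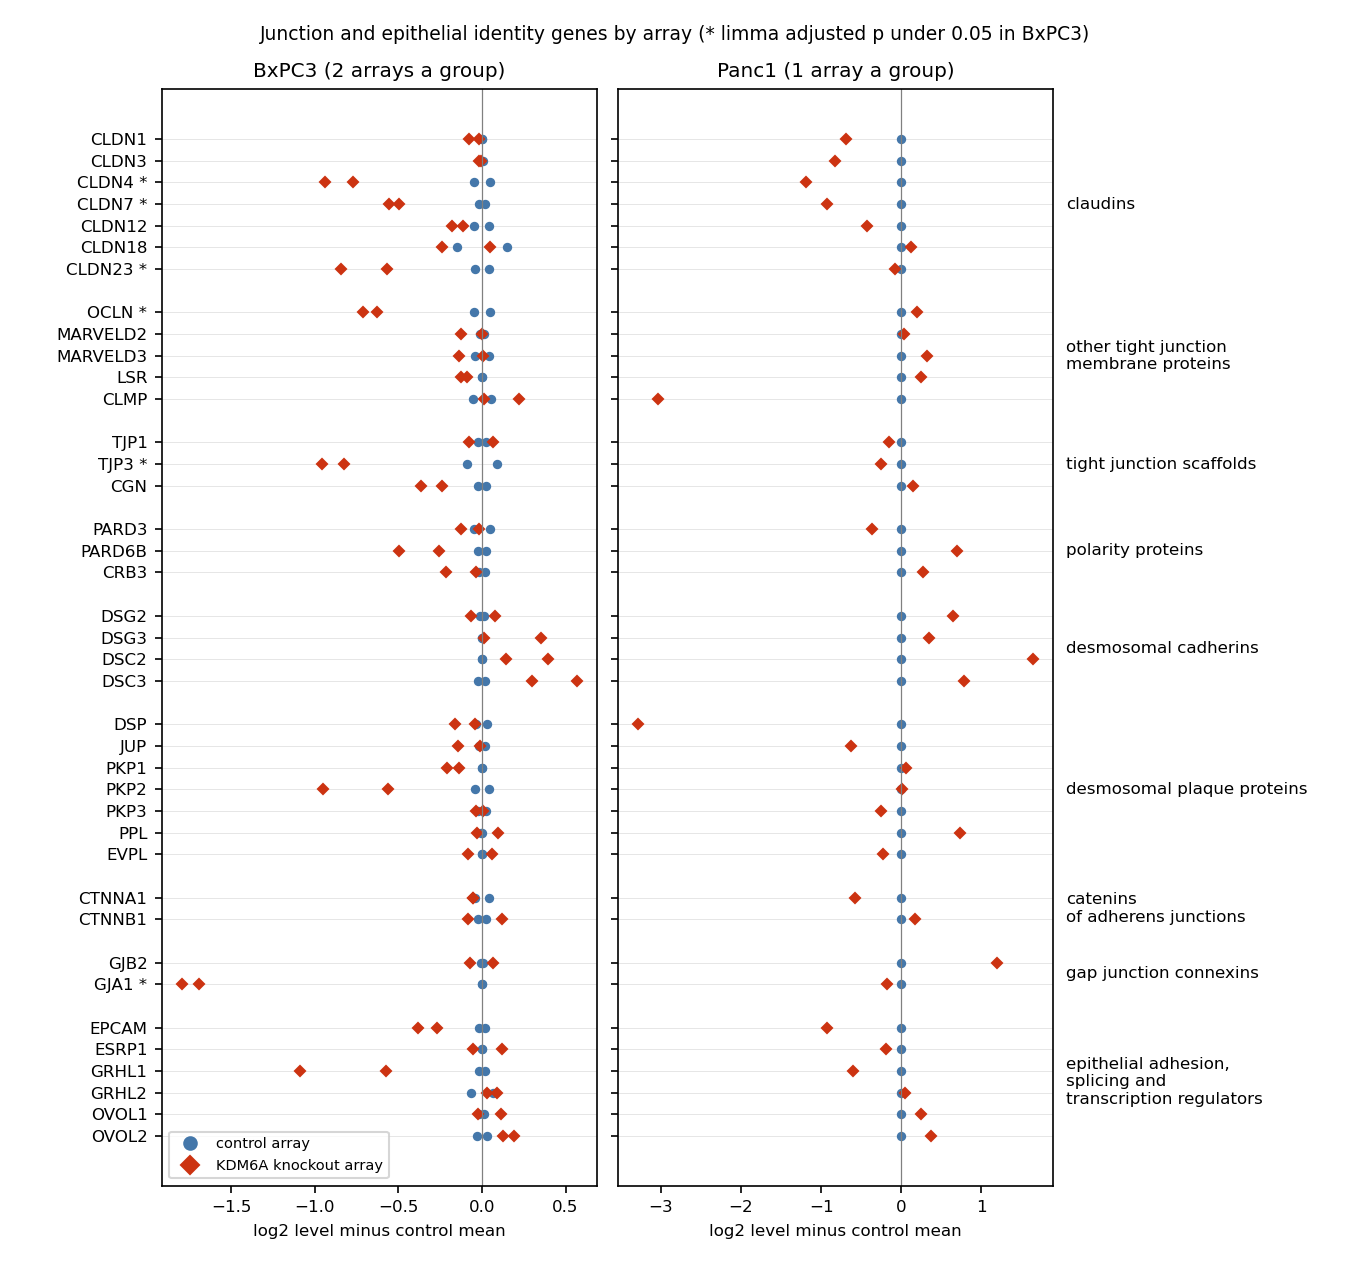
Level on each array minus the mean of the line's controls, in log2 units (horizontal axis), for the 39 measured members by role, with BxPC3 on the left and Panc1 on the right; circles are control arrays, diamonds knockout arrays, and an asterisk marks a member past the limma threshold in BxPC3. DSP and CLMP stand farthest from 0 in Panc1 (-3.28 and -3.04), and GJA1 in BxPC3, where the mean difference is -1.74.

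Panc1 had 1 array per group, so its differences have no replicate check and no test within the line. A difference of at least 2-fold was seen for 5 of 39 members: CLDN4, CLMP and DSP were lower and DSC2 and GJB2 higher. Over all genes tested 3.86% differed that much, 3.28% lower and 0.577% higher. Median centring of the arrays over tested genes moved all Panc1 differences up by 0.20, after which the split of all genes at 2-fold went from 472 lower and 83 higher to 301 and 152, and CLDN4 at -0.99 no longer reached 2-fold. Under the same centring the number of members above 0 in Panc1 rose from 20 to 24 of 39. Over all genes tested that number rose from 7004 to 10047 of 14387.

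Claudins form the paracellular seal and pore of the tight junction. CLDN4, a sealing claudin of simple epithelia, read 9.16 and 9.25 in the BxPC3 controls and 8.44 and 8.27 in the knockouts. The groups did not overlap, and the difference was -0.85 ± 0.09 (SE, n = 2 and 2, limma adjusted p = 0.0124), 1.81-fold lower. In Panc1 the gene read 9.30 in the control and 8.11 in the knockout, 2.28-fold lower. CLDN4 is therefore the member that was called in BxPC3 and past 2-fold in Panc1 alike, and the test of a difference between the lines was not passed (-0.34 ± 0.15, adjusted p = 0.190). A second, dim CLDN4 probe set read between 4.54 and 5.04 on all 6 arrays and did not share the difference (0.23 in Panc1 and 0.05 in BxPC3). Averaging both probe sets brought the Panc1 difference to -0.48.

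CLDN7, another claudin of ductal epithelium, read 10.69 and 10.73 in the BxPC3 controls and 10.15 and 10.21 in the knockouts. The knockout arrays were both lower, by -0.53 ± 0.07 (adjusted p = 0.0204). In Panc1 it read 8.45 in the control and 7.53 in the knockout, a difference of -0.92. CLDN23, a less studied family member, read 7.10 and 7.19 against 6.58 and 6.30 in BxPC3, a difference of -0.70 ± 0.11 (adjusted p = 0.0351). Its Panc1 levels of 5.48 and 5.40 were close together, although the difference between the lines was not past the threshold (adjusted p = 0.0928). Without control array 1, control array 2, knockout array 1 and knockout array 2 in turn the adjusted p of CLDN4 was 0.0856, 0.118, 0.0372 and 0.0493, that of CLDN7 0.209, 0.266, 0.0505 and 0.0562, and that of CLDN23 0.190, 0.265, 0.0420 and 0.0679. CLDN23 also lost its call, at 0.0653, when no filter on dim probe sets was applied.

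CLDN1, a barrier-forming claudin, read 11.25 on both BxPC3 controls and 11.23 and 11.17 on the knockouts, so any difference there was small (-0.05 ± 0.07, adjusted p = 0.760). In Panc1 it read 8.06 in the control and 7.37 in the knockout. CLDN3, which like CLDN4 binds the Clostridium perfringens enterotoxin, read 7.12 and 6.29 in Panc1 and between 5.98 and 6.0 on the 4 BxPC3 arrays. The difference between the lines (Panc1 difference minus BxPC3 difference) was also tested, with each Panc1 array assumed to vary like those of BxPC3. It was -0.64 ± 0.11 for CLDN1 (adjusted p = 0.0287) and -0.81 ± 0.11 for CLDN3 (adjusted p = 0.0168). The 2 CLDN3 probe sets disagreed: the dimmer one differed by -0.40 in Panc1 and by -0.87 in BxPC3, and with both averaged the difference between the lines was -0.17 and no longer called (adjusted p = 0.645). CLDN1 lost this call with no filter on dim probe sets (adjusted p = 0.0585). CLDN3 and CLDN4 are neighbouring genes on chromosome 7 in the GRCh38.p14 gene table.

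CLDN12 read 9.40 and 9.49 in the BxPC3 controls and 9.26 and 9.33 in the knockouts (-0.14 ± 0.07, adjusted p = 0.360), and 8.86 and 8.43 in Panc1. CLDN18, whose gastric form is used as a target in pancreatic and stomach cancer, stayed near or below the array medians, from 3.87 to 5.21 over the 6 arrays. All 7 claudin members had differences below 0 in BxPC3 (median -0.14), and 6 of 7 in Panc1 (median -0.69). Under median centring 6 of 7 were below 0 in BxPC3 and 5 of 7 in Panc1. Quantile normalization gave 6 of 7 in each line. The further claudins, listed apart, were mixed in direction. In BxPC3 CLDN5, CLDN8 (0.84), CLDN9, CLDN10, CLDN11 and CLDN15 were above 0 and CLDN6, CLDN14 (-0.40) and CLDN16 below, none called. In Panc1 CLDN6, CLDN8 and CLDN10 were below 0 and the rest of those tested above.

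Occludin, MARVELD2 (tricellulin), MARVELD3 and LSR are other membrane proteins of tight junctions, the tricellular ones sitting where 3 cells meet. OCLN read 8.57 and 8.67 in the BxPC3 controls and 7.99 and 7.91 in the knockouts. Both knockout arrays were lower, by -0.67 ± 0.08 (adjusted p = 0.0150), 1.59-fold. In Panc1 it read 10.40 in the control and 10.61 in the knockout. The difference between the lines was 0.87 ± 0.13 (adjusted p = 0.0206). The other 3 OCLN probe sets were also lower in the BxPC3 knockouts (-0.28, -0.81 and -0.23), while in Panc1 they differed by -0.20, 0.03 and -0.28, so the sign in Panc1 depended on the probe set. With the 4 averaged the difference between the lines was 0.43 and not called (adjusted p = 0.0586). The adjusted p of OCLN in BxPC3 was 0.119 and 0.180 without control array 1 and 2, and 0.0470 and 0.0621 without knockout array 1 and 2.

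MARVELD2, the neighbour of OCLN on chromosome 5, read 8.60 and 8.62 in the BxPC3 controls and 8.61 and 8.49 in the knockouts, and 8.66 and 8.69 in Panc1. The BxPC3 difference was -0.06 ± 0.08 (adjusted p = 0.712), and the second, dimmer MARVELD2 probe set differed by -0.30 in BxPC3 and by -0.31 in Panc1. MARVELD3 read 7.34 and 7.42 against 7.25 and 7.39 in BxPC3 and lay below the array median in Panc1 (3.96 and 4.28). LSR, a lipoprotein receptor that marks tricellular junctions, read 10.10 on both controls and 10.01 and 9.97 on the knockouts in BxPC3 (-0.11 ± 0.06, adjusted p = 0.435), and 8.19 and 8.44 in Panc1.

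CLMP, an immunoglobulin-type adhesion protein of tight junctions, had one of the largest differences in Panc1. It read 5.54 in the control, above the array median of 4.75, and 2.50 in the knockout, below the median of 4.83. BxPC3 readings were 6.96 and 7.06 in the controls and 7.23 and 7.03 in the knockouts (0.12 ± 0.10, adjusted p = 0.573). This made a difference between lines of -3.16 ± 0.17 (adjusted p = 0.00385). The other CLMP probe set, the brighter on average in Panc1, went from 4.59 to 3.54, a difference of -1.05, so the size in Panc1 rests on the probe set chosen. Both were lower in the Panc1 knockout.

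TJP1 and TJP3 encode the scaffolds ZO-1 and ZO-3, and CGN encodes cingulin, which binds them. TJP3 read 5.81 and 5.99 in the BxPC3 controls and 5.08 and 4.94 in the knockouts. Both knockout arrays were lower, by -0.89 ± 0.09 (adjusted p = 0.0133), and lay near the array medians of 5.00 and 5.06. The second TJP3 probe set differed by -0.30. In Panc1 TJP3 read 5.43 and 5.17. Without control array 1 or 2 the adjusted p was 0.0669 and 0.111, and without knockout array 1 or 2 it was 0.0484 and 0.0691.

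TJP1 read 10.91 and 10.86 in the BxPC3 controls and 10.95 and 10.81 in the knockouts, overlapping values, and 10.07 and 9.92 in Panc1. CGN read 6.93 and 6.98 against 6.72 and 6.59 in BxPC3 (-0.30 ± 0.08, adjusted p = 0.117), with no overlap but no call, and 6.13 and 6.28 in Panc1. Of the polarity genes, PARD6B, a partner of atypical protein kinase C, read 10.04 and 10.74 in Panc1. The BxPC3 readings were 8.33 and 8.38 in the controls and 8.10 and 7.86 in the knockouts (-0.38, adjusted p = 0.124). Between the lines the differences were 1.08 ± 0.17 apart (adjusted p = 0.0234), the Panc1 difference being the more positive. The other 2 PARD6B probe sets, below the median of all 6 arrays, differed by -0.12 and -0.10 in Panc1, and with the 3 averaged the value was 0.49 and not called (adjusted p = 0.105). PARD3, the scaffold of the same complex, and CRB3, a Crumbs protein of the apical membrane, differed by -0.07 and -0.12 in BxPC3 and by -0.37 and 0.27 in Panc1, none of them called.

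Over the 18 tight junction and polarity members tested, 17 differences were below 0 in BxPC3 and 5 genes fell, with a median of -0.12. Over all genes tested 7085 of 14387 were below 0 there. The 26 other tight junction and polarity genes did not share the direction, with 11 below 0 and 15 above (median 0.035). Among the 18 members CLMP was the exception above 0. Under median centring or quantile normalization 15 of the 18 members were below 0. In Panc1 10 of the 18 members were below 0, with a median of -0.12, and 8 under median centring.

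**Figure D2:**
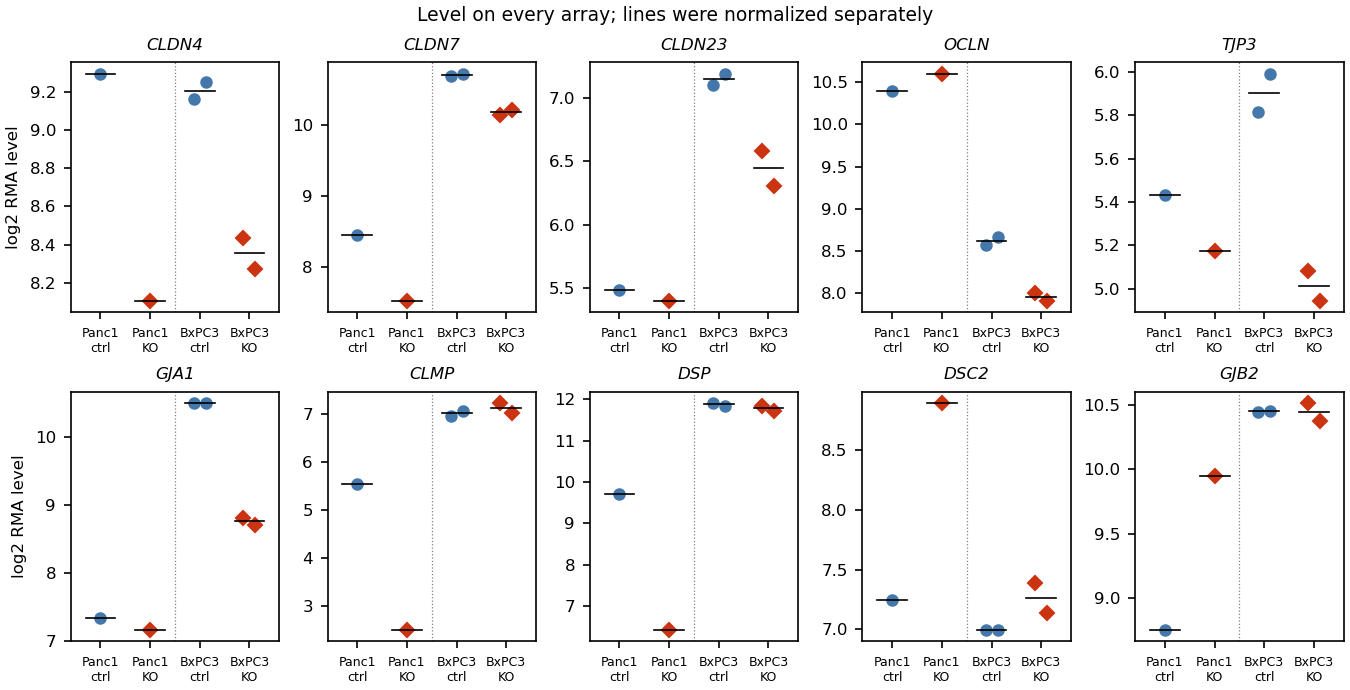
Log2 level (vertical axis, one scale per gene) on each array for the members called in BxPC3 or at least 2-fold different in Panc1; circles are controls, diamonds knockouts, bars the group means, and levels are comparable within a line and a gene only. GJA1 lies at 10.50 and 10.51 in the BxPC3 controls and at 8.81 and 8.71 in the knockouts, and DSP at 9.71 and 6.43 in the Panc1 control and knockout.

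With the brightest probe sets, the desmosomal cadherins stood above 0 in both lines, in contrast to the claudins. DSG2 did so by only 0.01 in BxPC3, and none passed the limma test there. DSC2, the desmocollin of simple epithelia, read 7.25 in the Panc1 control and 8.90 in the knockout, 3.13-fold higher. Of the other 3 DSC2 probe sets, 2 were higher by 1.49 and 1.50 and the dimmest by 0.17. In BxPC3 DSC2 read 7.00 on both controls and 7.39 and 7.14 on the knockouts (0.27 ± 0.10, adjusted p = 0.235). The test between lines gave 1.38 ± 0.17 (adjusted p = 0.0145).

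DSG2, its desmoglein partner, read 8.78 and 9.43 in Panc1 and 11.82 and 11.85 against 11.91 and 11.77 in BxPC3, where the groups overlapped. The lines differed by 0.64 ± 0.14 (adjusted p = 0.0424). A second DSG2 probe set differed by 0.07 in Panc1. The call between lines was lost with both averaged (0.40, adjusted p = 0.104) and when the filter on dim probe sets was dropped (adjusted p = 0.0787). DSC3 and DSG3 are the isoforms of stratified epithelium. DSC3 read 8.87 and 8.83 in the BxPC3 controls and 9.42 and 9.15 in the knockouts (0.43 ± 0.11, adjusted p = 0.107), and 3.92 and 4.70 in Panc1, below the array medians. DSG3 read 7.91 on both BxPC3 controls and 8.27 and 7.92 on the knockouts, and 4.06 and 4.40 in Panc1, below the array medians. The other DSC3 probe sets differed by -0.09 and 0.81 in Panc1 and the other DSG3 probe set by -0.15, so the sign there depended on the probe set. The median of the 4 cadherin differences was 0.23 in BxPC3 and 0.71 in Panc1. At an unadjusted p under 0.05, DSC2 and DSC3 were higher in BxPC3; under quantile normalization or with probe sets averaged 3 of the 4 were above 0 there.

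The 4 genes lie in a single cluster on chromosome 18, ordered DSC3, DSC2, DSC1, DSG1, DSG4, DSG3 and DSG2, next to CDH2, which encodes N-cadherin. DSC1, DSG1 and DSG4 were below the median of all 6 arrays and went untested. CDH2 read 7.86 and 7.20 in Panc1 and 6.44 and 6.28 against 7.35 and 6.97 in BxPC3 (0.80 ± 0.15, adjusted p = 0.0528).

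DSP encodes desmoplakin, the plaque protein that anchors keratins to the desmosome. In Panc1 it read 9.71 in the control and 6.43 in the knockout, 9.74-fold lower and the largest difference of the 39 members there. In BxPC3 it read 11.92 and 11.85 in the controls and 11.84 and 11.73 in the knockouts (-0.10 ± 0.08, adjusted p = 0.547). The lines differed by -3.18 ± 0.13 (adjusted p = 0.00342). DSP had 1 probe set, so no second measurement of it was made.

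JUP, which encodes plakoglobin, read 8.24 and 7.61 in Panc1 and differed by -0.08 in BxPC3 (adjusted p = 0.644). PPL, which encodes periplakin, read 8.63 and 9.37 in Panc1 and 9.39 on both BxPC3 controls against 9.49 and 9.36 on the knockouts. The lines differed for PPL by 0.70 ± 0.13 (adjusted p = 0.0307, but 0.0602 without a filter on dim probe sets) and not past the threshold for JUP (-0.54, adjusted p = 0.0571). PKP2, a plakophilin, lay below the median of both Panc1 arrays (2.26 on each). In BxPC3 it read 8.62 and 8.70 in the controls and 8.10 and 7.71 in the knockouts. The difference of -0.76 ± 0.14 missed the limma threshold (adjusted p = 0.0551), and was -0.95 without knockout array 1. PKP2 passed in 6 of 14 alternative settings. Among them were a stricter filter on dim probe sets (0.0466), probe sets averaged (0.0160), median centring (0.0408) and quantile normalization (0.0308). The second PKP2 probe set differed by -0.54 in BxPC3 and by 0.47 in Panc1. PKP1, PKP3 and the envoplakin gene EVPL differed by -0.17, -0.01 and -0.01 in BxPC3 and by 0.06, -0.26 and -0.23 in Panc1.

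Of the 11 desmosome members none passed the limma test in BxPC3, where DSC2, DSC3 and PKP2 had an unadjusted p under 0.05. That count depended on the setting. DSC3 (higher) and PKP2 (lower) passed with a variance trend (limma adjusted p = 0.0369 and 0.0127), when 9.15% of all genes passed. Both also passed under quantile normalization (0.0417 and 0.0308), when 6.1% of all genes passed. The median difference was -0.01 in BxPC3 and 0.06 in Panc1, and 1 of the 11 was past 2-fold in each direction in Panc1. In that line the 2 were parts of one structure with opposite signs, the plaque gene DSP and the cadherin gene DSC2.

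The catenins link cadherins to actin. CTNNA1, which encodes alpha-catenin, read 11.41 and 10.83 in Panc1 and differed by -0.05 in BxPC3 (adjusted p = 0.739). CTNNB1, which encodes beta-catenin, read 10.61 and 10.78 in Panc1 and differed by 0.02 in BxPC3.

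GJA1 encodes connexin 43 and GJB2 connexin 26, subunits of gap junction channels. GJA1 read 10.50 and 10.51 in the BxPC3 controls and 8.81 and 8.71 in the knockouts. The groups were separated by far more than the spread within them, with a difference of -1.74 ± 0.07 (adjusted p = 0.00197), 3.35-fold lower. This call held in all 14 alternative settings, at adjusted p between 2.01e-05 and 0.0250. In Panc1 GJA1 read 7.34 and 7.16, a difference of -0.18 that became 0.02 under median centring and 0.01 under quantile normalization. The lines differed by 1.56 ± 0.12 (adjusted p = 0.00561).

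GJB2 went the other way in the other line. It read 8.75 in the Panc1 control and 9.95 in the knockout, 2.29-fold higher. BxPC3 gave 10.45 and 10.46 in the controls and 10.52 and 10.38 in the knockouts, overlapping values. The test between lines gave 1.20 ± 0.13 (adjusted p = 0.0111). GJB6, which encodes connexin 30 and lies next to GJB2 on chromosome 13, read 6.68 and 8.10 in Panc1, and 6.61 and 6.53 against 7.30 and 6.88 in BxPC3 (0.52 ± 0.15, adjusted p = 0.145). GJA3, on the other side of GJB2, differed by -0.31 in Panc1.

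None of the 6 epithelial regulators measured passed the limma test in BxPC3, where EPCAM and GRHL1 had an unadjusted p under 0.05. EPCAM, an epithelial surface adhesion protein, read 8.47 and 7.54 in Panc1. BxPC3 gave 11.59 and 11.55 in the controls and 11.30 and 11.18 in the knockouts (-0.33, adjusted p = 0.0925). The lines differed by -0.60 ± 0.13 (adjusted p = 0.0435), a call lost without a filter on dim probe sets (0.0817) and under median centring (0.0549). GRHL1, a grainyhead-like factor, read 7.23 and 7.20 in the BxPC3 controls and 6.64 and 6.13 in the knockouts (-0.83 ± 0.17, adjusted p = 0.0747) and 6.93 and 6.32 in Panc1. It passed the threshold without knockout array 1 (0.0276).

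GRHL2, the main grainyhead-like factor of simple epithelium, read 8.65 and 8.79 against 8.81 and 8.75 in BxPC3 and 3.29 and 3.35 in Panc1, where it lay below the array medians. ESRP1, the epithelial splicing regulator, had the same layout, at 10.06 and 10.07 against 10.18 and 10.01 in BxPC3 and 3.45 and 3.25 in Panc1. OVOL1 and OVOL2, zinc-finger repressors of mesenchymal genes, differed by 0.05 and 0.16 in BxPC3 and by 0.24 and 0.37 in Panc1. In all, 7 members were below the array median on both Panc1 arrays and above it on all BxPC3 arrays: MARVELD3, DSG3, DSC3, PKP2, ESRP1, GRHL2 and OVOL2.

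**Figure D3:**
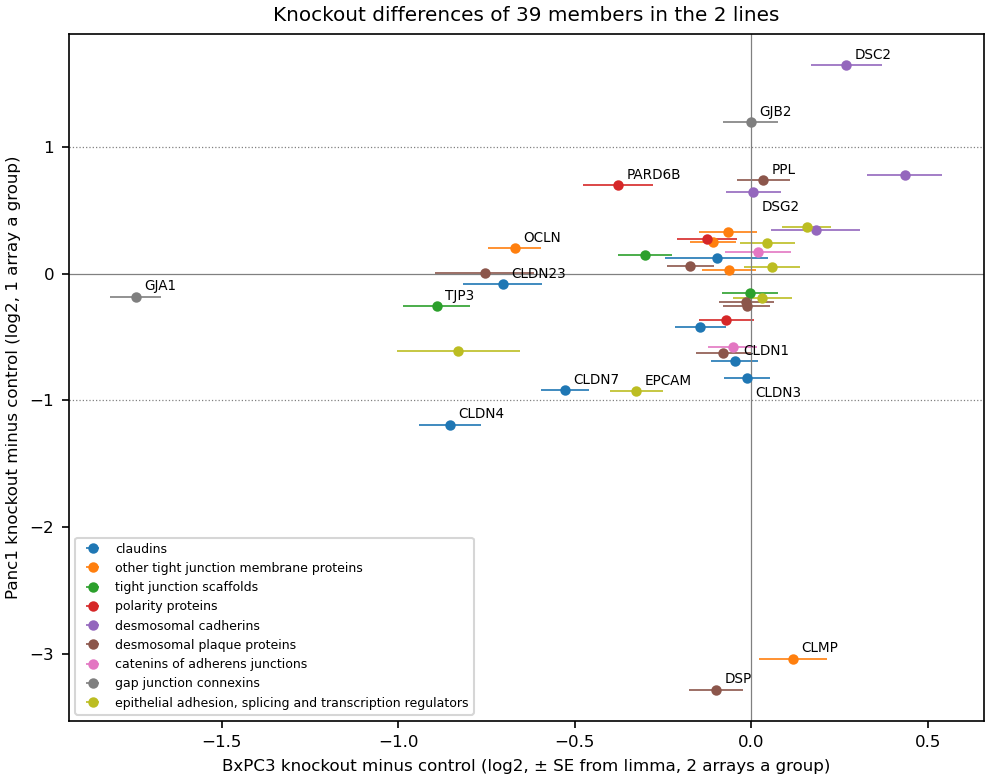
Knockout minus control of each measured member in BxPC3 (horizontal axis, bars ± SE from limma) and Panc1 (vertical axis, no replicate), both in log2 units, coloured by role; names mark members past a test or a 2-fold difference, and dotted lines mark 2-fold in Panc1. DSP and CLMP lie low near a BxPC3 difference of 0, GJA1 lies far to the left near a Panc1 difference of 0, and CLDN4 and CLDN7 are below 0 on both axes.

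Whether a difference was shared by the lines was tested in 2 ways. In a fit with 1 knockout effect over both lines, no member passed the limma threshold, against 0.0834% of all genes, and 12 of 39 had an unadjusted p under 0.05, 9 lower and 3 higher, or 30.8% against 11.8% of all genes. CLDN4 came closest among the members described (-0.97, adjusted p = 0.0712). The difference between the lines passed for 12 of 39 members, or 30.8%, against 14.0% of all genes tested. For CLDN1, CLDN3, CLMP, DSP and EPCAM the Panc1 difference was the lower, and for DSC2, DSG2, GJA1, GJB2, OCLN, PARD6B and PPL the higher.

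Because Panc1 has 1 array per group, that test takes the spread of its arrays from BxPC3, whose replicates may be technical, and does not measure how Panc1 cultures or clones vary. Without control array 1 or control array 2 of BxPC3, 3 of the 12 remained (CLMP, DSP and GJA1), and the other 9 had adjusted p from 0.0701 to 0.195 and from 0.0693 to 0.212, while 1.72% and 1.63% of all genes passed. Without knockout array 1 or 2 all 12 remained and 7 and 3 further members passed, while 2874 and 3402 of the 14387 genes passed. Median centring moved the split from 5 lower and 7 higher to 4 and 13, and that over all genes from 1300 and 708 to 1002 and 1985.

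**Figure D4:**
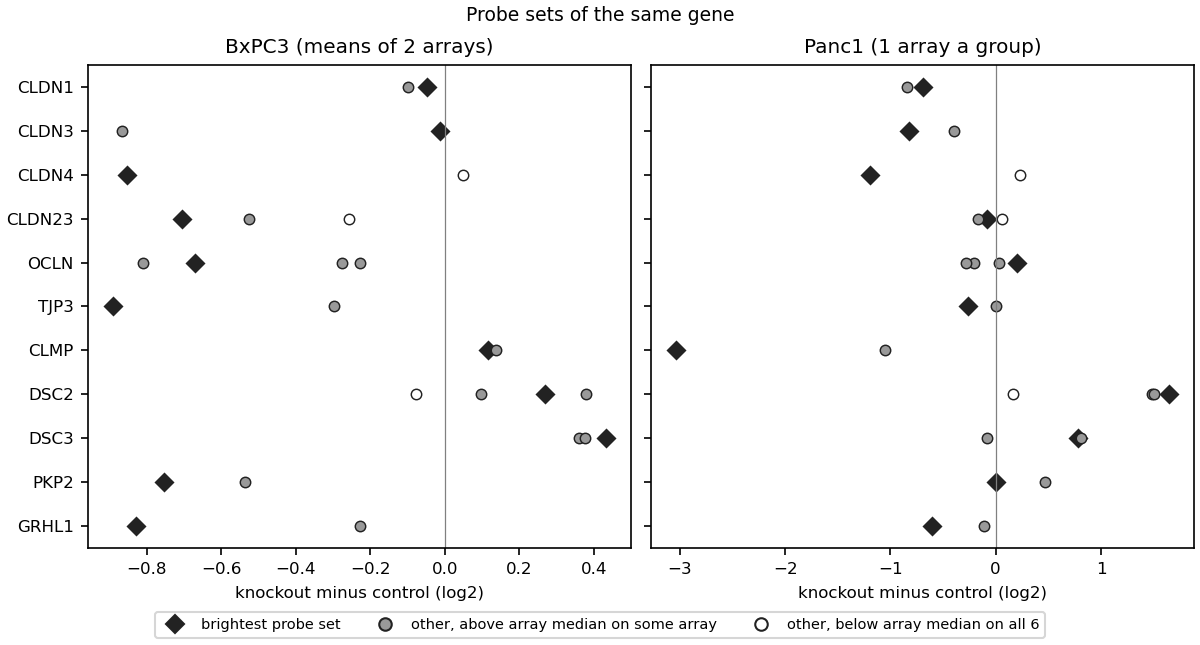
Knockout minus control in log2 units (horizontal axis) for each single-gene probe set of 11 members, in BxPC3 and Panc1; diamonds are the brightest probe set, used elsewhere, grey circles others above the array median on some array, and open circles those below it on all 6. The 4 OCLN probe sets are all below 0 in BxPC3, the 2 CLMP probe sets are below 0 in Panc1 at -3.04 and -1.05, and the dim CLDN4 probe set differs by 0.05 and 0.23.

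The 39 members had 82 probe sets between them, and 12 members had a single one. Dimmer probe sets of TJP1 and CTNNB1 stood apart in Panc1, at -0.83 for TJP1 and -0.94 and 0.53 for CTNNB1, while those used differed by -0.15 and 0.17.

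Of 90 further junction and epithelial genes listed by function, 73 were tested and NECTIN4 alone passed in BxPC3, 1.37% against the 4.72% of all genes. At an unadjusted p under 0.05, 12 were lower and 7 higher, or 26.0% against 19.9% of all genes. NECTIN4, a nectin of adherens junctions, read 6.58 and 6.88 in the controls and 5.84 and 5.54 in the knockouts (-1.04 ± 0.15, adjusted p = 0.0280). In Panc1 it read 5.06 and 5.61, and the lines differed by 1.59 ± 0.26 (adjusted p = 0.0241). It lost its BxPC3 call without any 1 of the 4 arrays, at adjusted p of 0.0704 and 0.151 without control array 1 and 2 and 0.0583 and 0.101 without knockout array 1 and 2, and at 0.0507 with no filter on dim probe sets. By list, the calls in BxPC3 were 0 of 26 other tight junction and polarity genes, 0 of 3 desmosome genes, 0 of 7 gap junction genes, 1 of 11 adherens junction genes, 0 of 19 other epithelial genes and 0 of 7 mesenchymal genes. The median difference over the 73 was 0.00 in BxPC3 and 0.04 in Panc1.

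In Panc1 5 of the 73 differed at least 2-fold, 6.85% against 3.86% of all genes. CDH1, which encodes E-cadherin, the core adhesion protein of adherens junctions, read 7.87 in the control and 5.78 in the knockout, 4.24-fold lower. Its second probe set lay below the medians in Panc1 and differed by -0.28 there. In BxPC3 CDH1 differed by -0.07 (limma adjusted p = 0.708), and the lines differed by -2.01 ± 0.14 (adjusted p = 0.00508). The second CDH1 probe set read 8.22 and 8.15 in the BxPC3 controls and 7.98 and 7.71 in the knockouts, a difference of -0.34. With both averaged the lines differed by -0.98, so these sizes depended on the probe set. CDH3, the neighbouring P-cadherin gene on chromosome 16, read 7.48 and 6.52 in Panc1. PLEKHA7, which ties p120 catenin to microtubules, read 6.62 and 5.13, and TMC4, an epithelial membrane protein gene, 7.11 and 5.92. AP1M2, an epithelial sorting adaptor of basolateral transport, was higher at 5.82 and 6.95, as was GJB6. Of the mesenchymal regulators ZEB1 read 7.19 and 7.77 in Panc1 and between 3.70 and 3.89 in BxPC3, and ZEB2 stayed below the median on all 6 arrays. The other ZEB1 probe sets differed by -0.22, -0.23 and -1.01 in Panc1, so the sign there depended on the probe set. None of the 7 mesenchymal genes tested passed the limma test in BxPC3, where SNAI2 and CDH2 had an unadjusted p under 0.05.

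**Figure D5:**
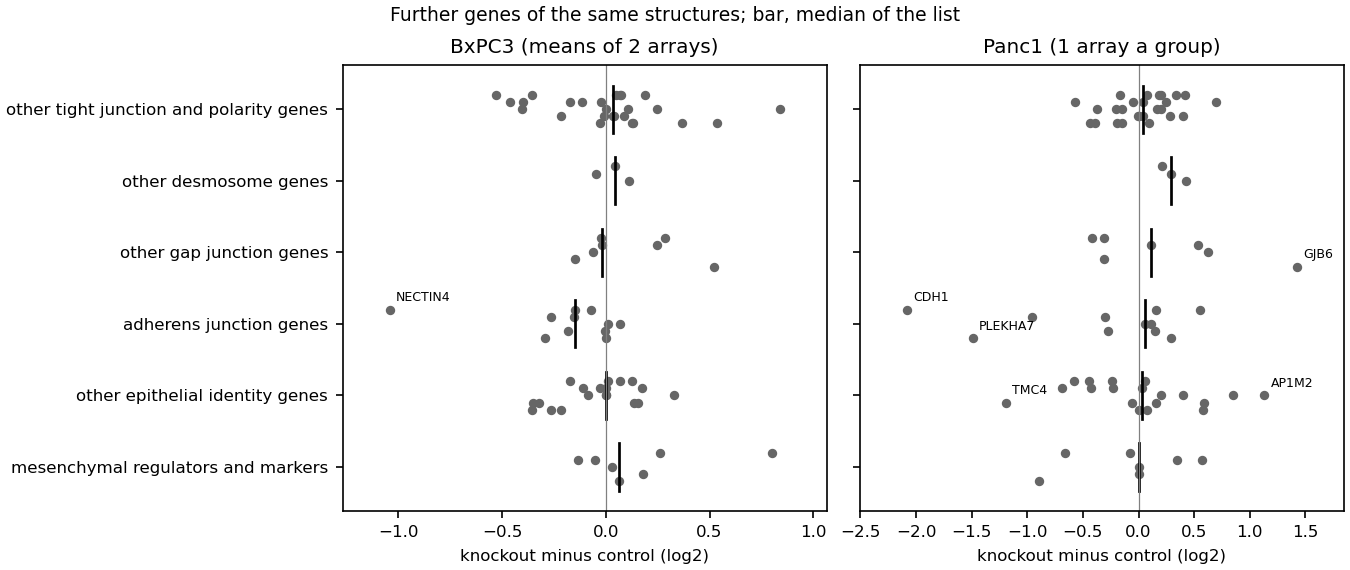
Knockout minus control in log2 units (horizontal axis) of the 73 further genes tested, by list, in BxPC3 and Panc1; each point is a gene, bars are list medians, and names mark the BxPC3 call and the Panc1 differences of at least 2-fold. NECTIN4 lies at -1.04 in BxPC3, and CDH1 lies lowest in Panc1 at -2.08.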

How the data were processed

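Total RNA from 6 samples was amplified and hybridised to expression arrays with 54613 probe sets, per the labels' protocols. The authors deposited log2 expression values made with RMA (the affy tool), per the submitters' processing notes; versions were not given in the sources used here. Equal values occur within but not between the lines, as separate RMA runs for each line would give, and levels were compared within a line only. Per the platform annotation, 41091 probe sets carry 1 gene symbol, 1801 several and 11721 none, and genes were named from the first kind only. The brightest probe set by mean level stood for a gene, and 14387 of 19775 genes above the array median on at least 1 array were tested. limma 3.58.1 in R 4.3.3 fitted 4 groups on the 6 arrays (2 residual and 3.08 prior degrees of freedom), with Benjamini-Hochberg adjustment over all genes tested and a threshold of 0.05; the test over both lines used line and genotype as terms (3 residual and 2.91 prior degrees of freedom). The number of arrays limits the precision. The fit was also tested on simulated data with known changes in BxPC3, built from the levels and spread of the real fit. Each of 10 sets had 200 changed genes of 14387, fewer than the 679 called in the data. The fit recovered 79.8% of log2 changes of 1 and 5.6% of those of 0.5. A small difference that did not pass is therefore not shown to be absent.

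The members and gene lists were chosen with earlier results of these data known. All members are named by role. Of the further genes, the text names genes called in BxPC3 or at least 2-fold different in Panc1, up to 4 per list. CDH2, CDH3, GJA3, ZEB1, ZEB2, SNAI2, DSC1, DSG1, DSG4 and the further claudins were added after their values were seen. Alternatives changed the filter, variance prior, scaling, choice of probe set, arrays left out and replicate number as a block. Promoter windows come from RefSeq (GRCh38.p14), where 25 members matched.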

Additional observations from a re-analysis of the deposited data

Results flagged for a closer look

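The limma test of the Panc1 difference against the BxPC3 difference passed for 12 of 39 members (30.8%) and 11 of 73 further genes (15.1%). Values are given for these members and for the further genes named by rule. Panc1 had 1 array per group, each assumed to vary like the BxPC3 arrays, so the test does not measure the spread of Panc1 cultures or clones. The values that follow are the Panc1 difference minus the BxPC3 difference on the log2 scale. Among tight junction and polarity members they were -0.64 for CLDN1, -0.81 for CLDN3, -3.16 for CLMP, 0.87 for OCLN and 1.08 for PARD6B. Among desmosome members they were 1.38 for DSC2, 0.64 for DSG2, -3.18 for DSP and 0.70 for PPL. The connexin genes GJA1 and GJB2 had values of 1.56 and 1.20, and EPCAM had -0.60. Of the further genes named by rule, CDH1 had -2.01, PLEKHA7 -1.20, TMC4 -1.33, AP1M2 1.13 and NECTIN4 1.59. The other further genes that passed were CDH2, CDH3, CXADR, KRT7, MYO5B and RAB25. Without BxPC3 control array 1 the adjusted p was 0.0596 for PLEKHA7, 0.0982 for TMC4, 0.0830 for AP1M2 and 0.0548 for NECTIN4, and without control array 2 it was 0.0668, 0.116, 0.0807 and 0.0749, so these 4 lost the call; TMC4 also lost it with no filter on dim probe sets (0.0580). Of the members, CLMP, DSP and GJA1 kept it without either control array and the other 9 did not. With probe sets averaged, the call was lost for CLDN3, DSG2, OCLN and PARD6B. Across all genes tested 14.0% passed the same test.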

How the results depend on the processing

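Among the members and the 6 further genes named by rule, no called difference changed sign under any alternative tried. In BxPC3 this was fixed in advance where an array was left out, as the arrays of the called genes did not overlap. With a variance trend, 11 members passed in BxPC3 (10 lower and 1 higher), while 9.15% of all genes passed. Over both lines 1 member then passed (CLDN4, limma adjusted p = 0.0369), against 0.195% of all genes. Leaving out 1 BxPC3 array gave 1 to 7 members in BxPC3, 0 to 0 over both lines, 3 to 19 in the test between lines and 0 to 3 further genes. Further genes passing in BxPC3 numbered 0 with no filter on dim probe sets, 3 with a stricter filter, 11 with a variance trend, 2 with the replicate block, 2 with probe sets averaged, 4 with median centring and 4 with quantile normalization. In the same order, 2.25%, 5.49%, 9.15%, 2.67%, 5.08%, 5.33% and 6.1% of all genes passed. Over all genes, calls in BxPC3 were 679 as reported and 89 to 1317 over these settings, and calls between lines 2008 and 234 to 3402. The labels do not say whether the replicate numbers pair the arrays. Same-numbered deviations correlated at -0.166, which cannot settle it with 2 arrays per group. The replicate block left 4 members (CLDN4, GJA1, OCLN and TJP3), while 2.67% of all genes passed. The crossed pairing, chosen after seeing the data, left 5, while 3.16% of all genes passed. These blocks lost CLDN7 at limma adjusted p of 0.0662 and 0.0546. The causes were not tested, except that leaving out an array leaves fewer degrees of freedom. The 2 arrays per group limit the precision in BxPC3, and Panc1 has no replicate.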
